A study of Homo sapiens with 6 samples.

Results

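The genes described here are 43 genes of DNA replication and mitosis, chosen by name from the 18678 genes of the deposited table, and all 43 were found in it. They form a replication set of 20 genes (the MCM helicase, its loaders, GINS, PCNA, nucleotide supply and G1/S regulators) and a mitosis set of 23 genes (cyclins, kinases, kinesins, spindle and checkpoint genes). The RNA came from Cal27, an established cell line of human tongue squamous cell carcinoma, and from Cal27-shGRK2, and was read by strand-specific mRNA sequencing. By its name the second group carries a short hairpin RNA against GRK2, a kinase acting on G protein-coupled receptors once they are active. The title names the epithelial phenotype of squamous carcinomas as the study's subject. The labels give no treatment, do not say whether the Cal27 cells carried a control hairpin, and name neither the hairpin sequences nor the number of clones. Both groups were cultured with fetal bovine serum and collected while still subconfluent, as the growth and extraction protocols state.

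The labels name 3 libraries per group, but the columns of replicates 0 and 1 of Cal27-shGRK2 did not differ in any of the 18678 genes. They were counted as 1 sample, called here the shared library, so 3 Cal27 libraries were set against 2 Cal27-shGRK2 libraries. Whether the libraries are separate cultures is not said, and p-values then reflect only how these samples vary, which may be technical. Values are in FPKM, a fragment count divided by transcript length and library size. They summed to between 590163 and 644831 per library, and sequencing depth is unknown. GRK2, listed as ADRBK1, had 55.3, 59.4 and 55.8 FPKM in Cal27, against 17.3 and 16.6 FPKM in Cal27-shGRK2 (log2 fold change -1.69 ± 0.06, SE, limma adjusted p = 3.8e-11), and an exact permutation test of that gene gave p = 0.1, two-sided, the smallest the 10 splits of 5 libraries allow. All 8 epithelial and squamous markers reached a mean of 1 FPKM over the 5 libraries, though not all did in Cal27-shGRK2 alone. Their summed level was 2762 to 3068 FPKM in Cal27 and 1105 to 1130 FPKM in Cal27-shGRK2. KRT5, a basal keratin, carried most of that sum, at 2073 to 2322 FPKM against 740 to 773 FPKM. KRT17, KRT14, TP63, PKP1 and DSG3 were also lower, without overlap, but EPCAM (130 to 149 FPKM against 188 to 193 FPKM) and E-cadherin, CDH1 (66.8 to 72.2 FPKM against 99.2 to 105 FPKM), were higher. KRT14 was at 16.5 to 20.9 FPKM in Cal27 and at 0.23 and 0.16 FPKM in Cal27-shGRK2. DSG3 was at 2.40 to 2.45 FPKM in Cal27 and at 0.77 and 0.77 FPKM in Cal27-shGRK2. Of markers of other cell types, 4 of 8 for fibroblasts, 2 of 5 for blood and 1 of 4 for endothelium were found in the table, and 1 of each type reached a mean of 1 FPKM. The summed level was 4.35 to 4.71 FPKM in Cal27 and 4.38 to 4.46 FPKM in Cal27-shGRK2 for fibroblasts, 1.47 to 2.24 and 4.25 to 4.83 FPKM for blood, through CD68, and 3.50 to 3.97 and 6.80 to 7.01 FPKM for endothelium, which is CDH5 alone. The part of these marker differences in the results on the members was not tested.

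Before a cell divides it must copy its DNA once. In G1, the origin recognition complex, CDC6 and CDT1 load the ring of MCM2 to MCM7 onto DNA, and in S phase GINS joins that ring to form the active helicase while PCNA clamps the polymerases to the template. Cyclin B and CDK1 then drive entry into mitosis, Aurora and Polo-like kinases build the spindle, the checkpoint kinases hold anaphase until every chromosome is attached, and CDC20 with UBE2C directs destruction of the cyclins. Transcription of these genes runs in waves: E2F factors, held by RB-family proteins, act on replication genes at G1/S, and the MuvB complex with B-MYB (MYBL2) and FOXM1 acts on mitotic genes in G2, through a promoter element named CHR that often lies beside a CCAAT box. In carcinoma lines such genes mark the proliferating share of the culture.

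Promoter sequences were read to show what separates the sets apart from function. RefSeq windows (GRCh38.p14) of 250 bases before to 50 after the annotated start were at hand for 33 of the 43 members, 16 of replication and 17 of mitosis. They were searched on both strands for the E2F motif as TTTCCCGC, TTTGGCGC, TTTCGCGC or TTTGCCGC, for the CHR motif as TTTGAA, and for the CCAAT box as CCAAT. Matches of the E2F motif can overlap each other on opposite strands, and no other motifs were searched. The windows of 4 members are printed because 3 of them belong to members that passed the test, in both directions, and the other to an abundant mitotic gene whose level did not pass. Capitals mark every match.

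MCM6, chr2:135876394-135876693, minus strand, E2F and CCAAT box matches: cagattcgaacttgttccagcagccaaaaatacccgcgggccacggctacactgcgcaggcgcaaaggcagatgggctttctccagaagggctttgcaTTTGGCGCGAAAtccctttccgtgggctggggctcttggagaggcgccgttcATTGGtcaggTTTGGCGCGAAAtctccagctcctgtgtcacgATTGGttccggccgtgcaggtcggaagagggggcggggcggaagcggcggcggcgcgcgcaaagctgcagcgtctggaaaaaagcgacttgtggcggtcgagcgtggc
RRM2, chr2:10122489-10122788, plus strand, CCAAT box matches: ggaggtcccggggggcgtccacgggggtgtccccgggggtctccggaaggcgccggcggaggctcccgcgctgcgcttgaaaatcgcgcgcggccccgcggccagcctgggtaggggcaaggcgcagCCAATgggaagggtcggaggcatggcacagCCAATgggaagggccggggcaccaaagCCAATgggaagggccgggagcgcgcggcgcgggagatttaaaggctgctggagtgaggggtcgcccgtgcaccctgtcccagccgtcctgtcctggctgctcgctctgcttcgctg
CDC20, chr1:43358731-43359030, plus strand, CHR and CCAAT box matches: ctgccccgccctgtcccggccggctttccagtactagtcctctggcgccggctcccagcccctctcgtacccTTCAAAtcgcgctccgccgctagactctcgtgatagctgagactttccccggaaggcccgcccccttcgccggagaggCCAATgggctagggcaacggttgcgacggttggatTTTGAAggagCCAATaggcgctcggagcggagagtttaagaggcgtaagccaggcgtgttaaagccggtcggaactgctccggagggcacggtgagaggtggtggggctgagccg
KIF23, chr15:69414099-69414398, plus strand, CHR and CCAAT box matches: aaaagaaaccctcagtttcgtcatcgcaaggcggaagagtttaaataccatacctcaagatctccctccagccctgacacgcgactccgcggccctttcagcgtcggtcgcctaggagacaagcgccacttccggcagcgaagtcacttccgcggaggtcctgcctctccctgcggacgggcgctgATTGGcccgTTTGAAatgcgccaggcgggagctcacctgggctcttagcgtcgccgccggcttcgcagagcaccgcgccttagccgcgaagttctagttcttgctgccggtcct

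The MCM6 window held 4 E2F matches, in overlapping pairs, which began 152, 148, 90 and 86 bases before the start, and 2 CCAAT boxes, read as ATTGG, which began 100 and 58 bases before it. RRM2 held 3 CCAAT boxes, in a repeated stretch, and none of the E2F letters searched. In KIF23 a CCAAT box began 64 bases and the CHR match 55 bases before the start, and in CDC20 a CHR match at 65 bases before the start was followed by a CCAAT box at 55. The E2F motif was in 12 of 16 replication windows (75.0%), 2 of 17 mitosis windows (11.8%) and 3.33% of the 27305 windows in the table. The CHR motif was in 1 of 16 replication windows (6.25%), 11 of 17 mitosis windows (64.7%) and 15.4% of all windows, while the CCAAT box was in 11 of 16, 15 of 17 and 35.7%. Of the 9084 windows of genes tested, 5.48% held the E2F motif, 9.46% the CHR motif and 37.1% the CCAAT box. Median GC content was 67.8% in replication windows, 61.0% in mitosis windows and 58.3% overall. These are matches of letters, with no test.

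**Figure D1:**
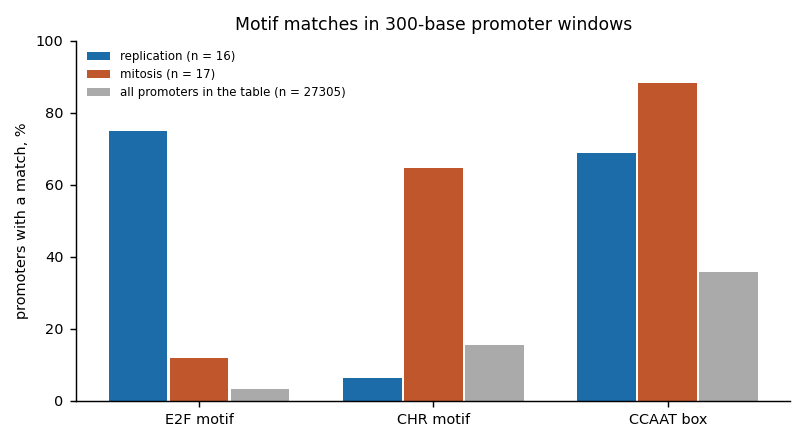
Share of 300-base promoter windows (y axis, %) with at least 1 match of each motif (x axis), for replication members (16 windows), mitosis members (17) and all promoters of the table (27305). The E2F motif reached 75.0% in the replication set and 11.8% in the mitosis set, and the CHR motif 6.25% and 64.7%.

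Replication and mitosis genes were expressed at nearly the same level with and without the hairpin. Of the 43 members, 3 rose (RRM2, GINS4 and KIF23), 3 fell (MCM6, GINS2 and BIRC5) and 37 did not pass an adjusted p of 0.05 in limma. That is 14.0% of the members, beside 29.6% of all 13377 genes tested. In the direction of a rise the background was 15.0%, and in that of a fall 14.6%. Log2 fold changes of the members ran from -0.26 to 0.30 with a median of -0.02, and the median over all genes tested was -0.01. All 43 passed the filter of a mean of at least 1 FPKM, so none was left out of these counts. In bulk RNA, a smaller share of cells in S phase or mitosis and less RNA per such cell cannot be told apart.

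The size of any shift could be bounded gene by gene. The 95% interval of the log2 fold change lay wholly between -0.5 and 0.5, a 1.41-fold change in either direction, in 43 of 43 members, beside 77.9% of all genes tested. In 27 members it lay between -0.25 and 0.25 (background 29.5%). The lowest bound of any member was -0.40, for MCM6, and the highest 0.48, for GINS4, and the median interval reached 0.14 to each side. Over all genes tested the median interval reached 0.17 to each side, so these shares compare intervals of unlike width. Each interval covers 1 gene and only the spread between these 5 libraries. GINS4 went past 0.5 in several alternatives, with an upper bound of 0.60 without Cal27-shGRK2 replicate 2, and RRM2 reached 0.54 without the shared library.

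**Figure D2:**
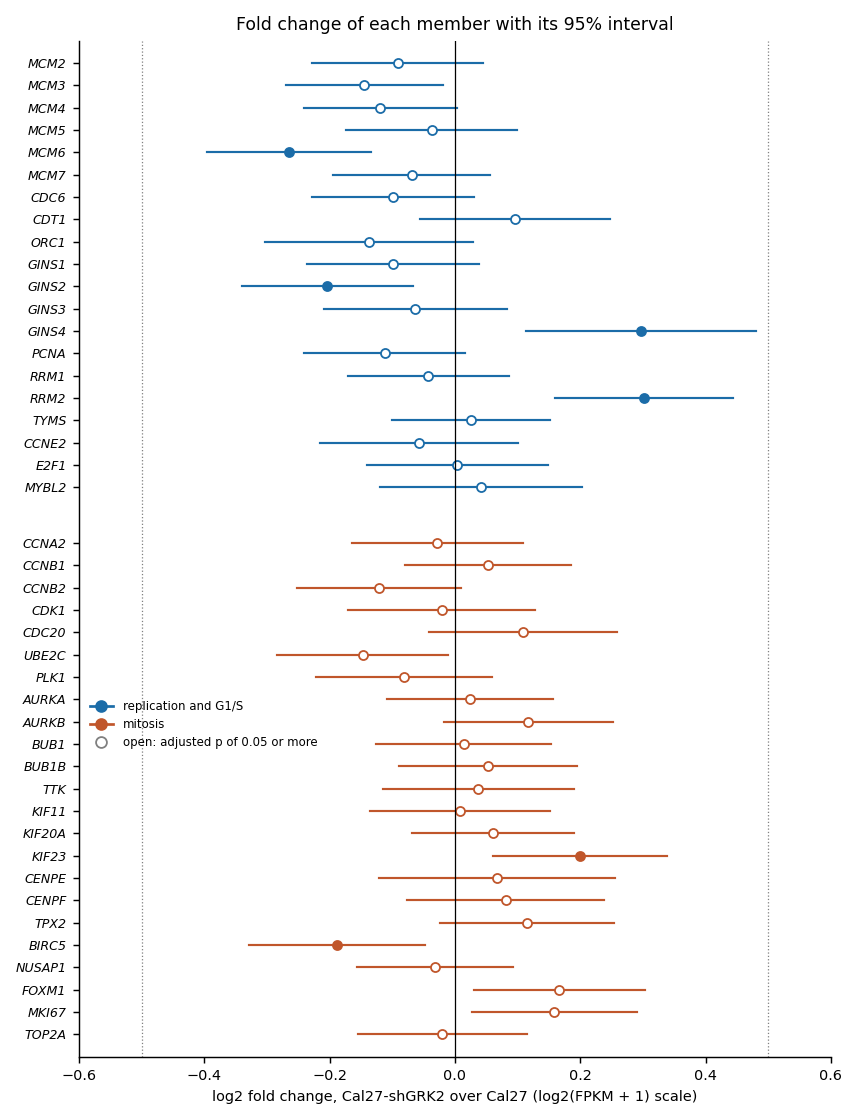
Log2 fold change of Cal27-shGRK2 over Cal27 (x axis, log2(FPKM + 1) scale) for each of the 43 members (y axis), with lines for the 95% interval from limma and filled points for adjusted p under 0.05. No interval crosses the dotted lines at -0.5 and 0.5, and 6 points are filled.

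Among all genes tested the members lay close to the line of no change at every level of expression. Member means in Cal27 ran from 4.16 FPKM for CENPE, a kinetochore motor, to 413 FPKM for PCNA, with a median of 73.3 FPKM. The median coefficient of variation over the 3 Cal27 libraries was 3.68%. The order of levels was kept closely, with 34 of 43 members within 2 places of their Cal27 rank in Cal27-shGRK2 and no move of more than 4 places.

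**Figure D3:**
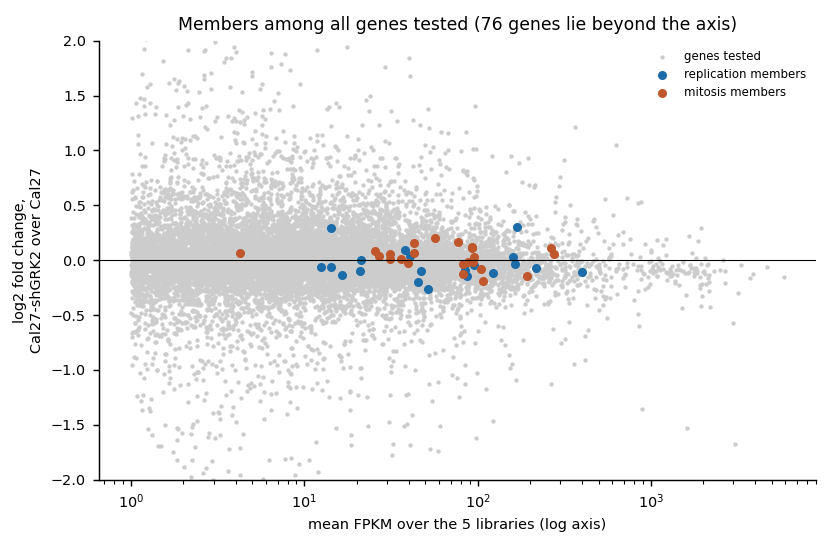
Log2 fold change (y axis) against mean FPKM over the 5 libraries (x axis, log scale) for the 13377 genes tested, with the replication and mitosis members coloured; 76 genes lie beyond the axis limits of -2 and 2. The members stay between -0.26 and 0.30 while genes of similar level spread more widely.

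None of the 3 most abundant members passed the test. PCNA, the sliding clamp, had 429, 399 and 411 FPKM in Cal27, against 371 and 393 FPKM in Cal27-shGRK2. The libraries did not overlap, yet the log2 fold change of -0.11 (95% interval -0.24 to 0.02) did not pass (limma adjusted p = 0.19), and it ran from -0.15 without Cal27-shGRK2 replicate 2 to -0.07 without the shared library. CCNB1, cyclin B1, had 273, 279 and 263 FPKM in Cal27, against 269 and 294 FPKM in Cal27-shGRK2, with the shared library inside the Cal27 range and replicate 2 above it. CDC20, the activator of the anaphase-promoting complex, had 245, 282 and 250 FPKM in Cal27, against 268 and 291 FPKM in Cal27-shGRK2, with overlapping groups (log2 fold change 0.11, limma adjusted p = 0.28). CDC20 passed as higher after rescaling to a common total (0.17, limma adjusted p = 0.041) and without Cal27 replicate 1 (0.17, 0.046). Its log2 fold change was 0.05 without Cal27-shGRK2 replicate 2.

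Of the 6 subunits of the helicase ring 1 fell, MCM6, beside 14.6% of all genes tested. All 6 log2 fold changes were below 0, with a median of -0.11, beside 50.9% of all genes tested below 0. MCM6 (ENSG00000076003.4, chr2:135839626-135876426, minus strand, GENCODE 29 on hg38) had 56.8, 56.3 and 54.4 FPKM in Cal27, against 45.0 and 47.7 FPKM in Cal27-shGRK2. Both Cal27-shGRK2 libraries lay under every Cal27 library, and the mean fell by 17.0% (log2 fold change -0.26 ± 0.06, SE, limma adjusted p = 0.0042). The call was lost without the shared library (limma adjusted p = 0.068, log2 fold change -0.22). MCM3 had 91.2, 93.0 and 88.5 FPKM in Cal27, against 81.3 and 82.9 FPKM in Cal27-shGRK2, without overlap, and did not pass (log2 fold change -0.14, limma adjusted p = 0.081). For MCM4, MCM2, MCM7 and MCM5 the log2 fold changes were -0.12, -0.09, -0.07 and -0.04, none past the threshold. Groups did not overlap in 5 of the 6 subunits, all lower, beside a background of 27.4% lower without overlap. Under rescaling to a common total, which moved the median of all genes from -0.01 to 0.05, and under quantile normalization, MCM5 was above 0 and the other 5 stayed below it.

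The MCM subunits assemble in equal number, but their transcripts did not stand at equal FPKM. In all 3 Cal27 libraries the order was MCM7, MCM5, MCM4, MCM3, MCM2 and MCM6, with MCM7 at 222 ± 7.76 FPKM (SD, n = 3) and MCM6 at 55.8 ± 1.25 FPKM. MCM3 and MCM2 were at 90.9 ± 2.28 and 86.8 ± 4.68 FPKM and did not differ beyond their spread, and they changed places in Cal27-shGRK2 replicate 2. The ratio of MCM7 to MCM6 was 3.83, 4.10 and 4.0 in Cal27 and 4.69 and 4.45 in Cal27-shGRK2. MCM7 is among 12 of the 43 members that overlap a protein-coding gene in GENCODE 29. Its neighbour lies on the opposite strand, and as no source used here gives the strand setting of the counting, part of its level is uncertain. The same holds for all 16 members that overlap any gene on the opposite strand, MCM7 among them.

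None of the 3 genes that load the helicase passed the test. CDT1, which brings the MCM ring to origins, had 36.2, 39.4 and 35.3 FPKM in Cal27, against 37.4 and 41.8 FPKM in Cal27-shGRK2, with overlapping groups (log2 fold change 0.10, 95% interval -0.06 to 0.25). ORC1, the largest origin recognition subunit, had a log2 fold change of -0.14 and CDC6, the loading ATPase, of -0.10.

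The GINS genes moved in opposite directions. GINS2 (ENSG00000131153.8, chr16:85676198-85690073, minus strand) had 46.7, 49.6 and 47.4 FPKM in Cal27, against 39.9 and 43.0 FPKM in Cal27-shGRK2, lower in both libraries without overlap (log2 fold change -0.20 ± 0.06, SE, limma adjusted p = 0.025). GINS4 (ENSG00000147536.11, chr8:41529206-41545046, plus strand) had 12.5, 14.6 and 11.9 FPKM in Cal27, against 16.8 and 15.5 FPKM in Cal27-shGRK2, higher in both libraries without overlap (log2 fold change 0.30 ± 0.09, SE, limma adjusted p = 0.017). Neither call held without the shared library (limma adjusted p = 0.23 for GINS2 and 0.18 for GINS4) or without Cal27 replicate 2 (0.055 for both), nor did that of GINS4 without Cal27-shGRK2 replicate 2 (0.052), or either with limma without trend (0.066 and 0.061). GINS2 also lost its call with the replicate number as a block and the shared library as number 1 (limma adjusted p = 0.055). GINS1 and GINS3 were at -0.10 and -0.06 and did not pass. GINS2 overlaps a protein-coding gene and GINS4 noncoding genes on the opposite strand, which makes their values uncertain. The 4 proteins form a single complex, and their transcripts spanned a ratio of 3.75, 3.43 and 3.99 from highest to lowest in Cal27 and 2.89 and 3.08 in Cal27-shGRK2.

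Of the 3 nucleotide supply genes 1 rose, beside 15.0% of all genes tested. RRM2, the regulated subunit of ribonucleotide reductase that makes deoxynucleotides (ENSG00000171848.13, chr2:10120698-10131419, plus strand), had 144, 163 and 155 FPKM in Cal27, against 183 and 197 FPKM in Cal27-shGRK2. Both Cal27-shGRK2 libraries lay above every Cal27 library, and the mean was 23.4% higher (log2 fold change 0.30 ± 0.07, SE, limma adjusted p = 0.0029). The call was lost without Cal27-shGRK2 replicate 2 (limma adjusted p = 0.061, log2 fold change 0.25). Its partner subunit RRM1 (log2 fold change -0.04, 95% interval -0.17 to 0.09) and thymidylate synthase, TYMS (0.03, -0.10 to 0.15), did not pass. RRM2 overlaps a second gene model on the same strand in GENCODE 29, and reads of both models may not be separable.

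The 3 G1/S regulators did not pass the test. E2F1, the factor that starts the replication wave, had a log2 fold change of 0.00 (95% interval -0.14 to 0.15), MYBL2 of 0.04 (-0.12 to 0.20) and cyclin E2, CCNE2, of -0.06 (-0.22 to 0.10). The groups overlapped in all 3.

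**Figure D4:**
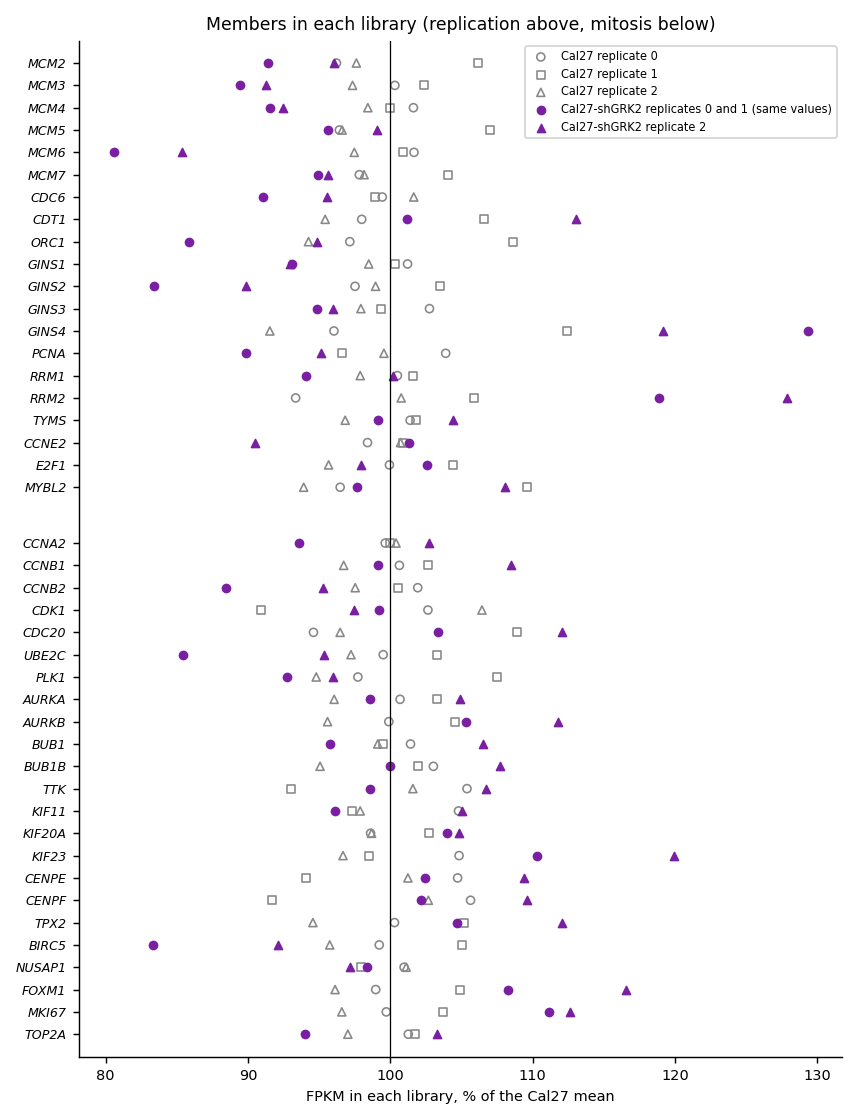
FPKM of each member (y axis) in each of the 5 distinct libraries as a percentage of its Cal27 mean (x axis), with open grey symbols for Cal27 and filled purple symbols for Cal27-shGRK2. MCM6, GINS2 and BIRC5 lie left of all Cal27 symbols and GINS4, RRM2 and KIF23 right of them, and in 37 of 43 members the triangle of Cal27-shGRK2 replicate 2 lies to the right of the circle of the shared library.

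Cyclins, CDK1 and the spindle checkpoint kinases did not pass in either direction. Cyclin A2 (CCNA2) and CDK1, the mitotic kinase, had log2 fold changes of -0.03 (95% interval -0.16 to 0.11) and -0.02 (-0.17 to 0.13). CCNB2, cyclin B2, had 87.0, 85.8 and 83.2 FPKM in Cal27, against 75.5 and 81.3 FPKM in Cal27-shGRK2, lower without overlap but short of the threshold (log2 fold change -0.12, limma adjusted p = 0.16). The 6 kinases PLK1, AURKA, AURKB, BUB1, BUB1B and TTK ran from -0.08 for PLK1 to 0.12 for AURKB, all short of the threshold with the deposited scaling. UBE2C, the ubiquitin-conjugating enzyme of the anaphase-promoting complex, had 200, 207 and 195 FPKM in Cal27, against 171 and 191 FPKM in Cal27-shGRK2, lower without overlap (log2 fold change -0.15, limma adjusted p = 0.10). For UBE2C the value was -0.07 without the shared library and -0.23 without Cal27-shGRK2 replicate 2, and neither passed.

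Of the kinesins, which move along spindle microtubules, 1 of 4 rose, beside 15.0% of all genes tested. KIF23, a motor of the central spindle needed for cytokinesis (ENSG00000137807.13, chr15:69414246-69448427, plus strand), had 55.9, 52.5 and 51.5 FPKM in Cal27, against 58.8 and 63.9 FPKM in Cal27-shGRK2. Both Cal27-shGRK2 libraries were higher than every Cal27 library (log2 fold change 0.20 ± 0.07, SE, limma adjusted p = 0.031), with a call lost without Cal27 replicate 2 (limma adjusted p = 0.12), without Cal27-shGRK2 replicate 2 (0.27) and in 3 other alternatives. KIF20A, CENPE and KIF11 had log2 fold changes of 0.06, 0.07 and 0.01, and KIF11 was below 0 under quantile normalization. On the opposite strand KIF23 overlaps 2 genes that are not protein-coding and KIF20A protein-coding ones, which makes their values uncertain.

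Among spindle and chromosome factors, BIRC5 was the member that passed. This gene encodes survivin, a subunit of the chromosomal passenger complex with Aurora B. The gene (ENSG00000089685.14, chr17:78214186-78225636, plus strand) had 113, 120 and 109 FPKM in Cal27, against 94.8 and 105 FPKM in Cal27-shGRK2, lower without overlap (log2 fold change -0.19 ± 0.07, SE, limma adjusted p = 0.044). The call was lost in 8 of 15 alternatives, among them those without Cal27 replicate 0 (limma adjusted p = 0.065), without Cal27 replicate 1 (0.087), without the shared library (0.36) and after rescaling to a common total (0.070). AURKB, its partner kinase, was higher in both Cal27-shGRK2 libraries without overlap, at 89.8, 93.9 and 85.9 FPKM against 94.7 and 100 FPKM, and did not pass (limma adjusted p = 0.19). AURKB passed as higher after rescaling to a common total (limma adjusted p = 0.021) and quantile normalization (0.047), and TPX2, a spindle assembly factor, after the former (0.029). By median of ratios neither passed (limma adjusted p = 0.090 for AURKB and 0.11 for TPX2), and TPX2 did not by quantiles (0.070). AURKB was chosen for its library values after they were seen.

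FOXM1 and MKI67 lay just short of the threshold. FOXM1, the transcription factor of the G2/M wave, had 72.5, 76.9 and 70.5 FPKM in Cal27, against 79.4 and 85.4 FPKM in Cal27-shGRK2, without overlap (log2 fold change 0.17, limma adjusted p = 0.064). MKI67, which encodes the Ki-67 proliferation antigen, had 40.7, 42.4 and 39.5 FPKM in Cal27, against 45.4 and 46.0 FPKM in Cal27-shGRK2, without overlap (0.16, limma adjusted p = 0.068). Under all 3 other scalings both passed as higher, FOXM1 with adjusted p = 0.026 in limma by median of ratios, 0.0065 by a common total and 0.0096 by quantiles, and MKI67 with 0.033, 0.0090 and 0.027. Over the 15 alternatives FOXM1 gained a call in 7 and MKI67 in 6. Neither passed without Cal27 replicate 2 (limma adjusted p = 0.23 and 0.24). Nor did either with the replicate number as a block and the shared library as number 1 (limma adjusted p = 0.23 and 0.21). Their log2 fold changes were 0.11 and 0.15 without Cal27-shGRK2 replicate 2, and 0.22 and 0.17 without the shared library. TOP2A, the topoisomerase that untangles sister chromatids, had a log2 fold change of -0.02 (95% interval -0.16 to 0.11). FOXM1 overlaps protein-coding genes on the opposite strand, so its value is uncertain in the same way as that of MCM7.

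Set against each other, the replication genes had the lower log2 fold changes and the mitotic genes the higher. The median log2 fold change was -0.07 over the 20 replication members, of which 14 were below 0 (2 fell and 2 rose), and 0.04 over the 23 mitosis members, of which 15 were above 0 (1 fell and 1 rose). Of all genes tested, 49.1% were above 0. Groups did not overlap in 12 replication members, 10 lower and 2 higher, and in 8 mitosis members, 3 lower and 5 higher, beside 53.3% of all genes tested (27.4% lower and 25.9% higher). As a mean over each set, in deviation from the Cal27 mean, mitosis minus replication was 0.03, -0.04 and 0.01 in Cal27 and 0.04 and 0.09 in Cal27-shGRK2 on the log2 scale. The Cal27-shGRK2 values are the upper ones, and the lower of them exceeds the highest Cal27 value by less than the pooled SD between libraries of 0.03. The difference of the group means was 0.07, and no test was made on a score over chosen members.

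The place of each set relative to 0 depended on the library and the scale. The mitosis mean was -0.02 in the shared library and 0.07 in Cal27-shGRK2 replicate 2, whose values were the higher of the pair in 37 of 43 members and in 70.2% of all genes tested. Without replicate 2 the mitosis median was -0.01, and without the shared library 0.09. After rescaling to a common total the replication median was -0.01, with a mean of 0.02 on the other side of 0, and the mitosis median was 0.09. Members past the threshold then numbered 10, 8 higher and 2 lower, which is 23.3%, beside 31.1% of all genes tested. That rescaling also brought more genes past the filter, 14483 against 13377. It called 2927 of them higher and 1575 lower, and 2815 and 1486 of the 13377, where the deposited values gave 2008 and 1949. A factor common to a whole library cancels from the difference between the set means, which was 0.07 under each of the 4 scalings and 0.04 to 0.09 when each library was left out in turn.

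**Figure D5:**
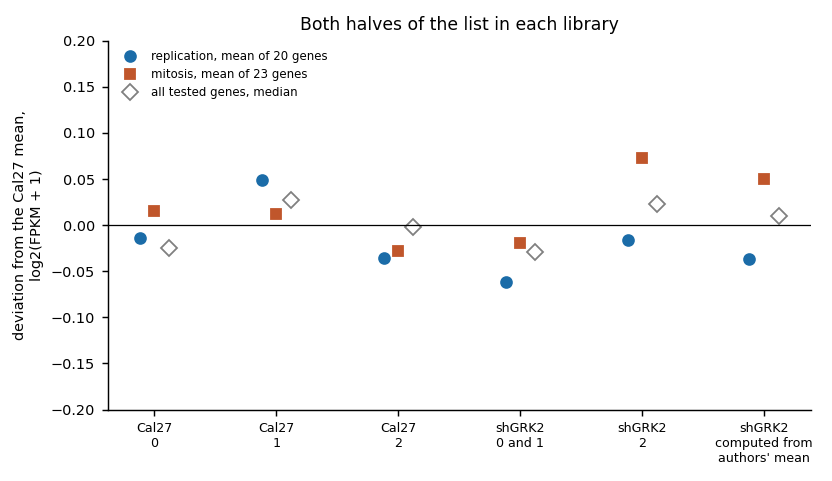
Mean deviation from the Cal27 mean (y axis, log2(FPKM + 1)) of the replication genes, the mitosis genes and, as a median, all genes tested, in each library (x axis); the last column is a library computed from the authors' mean of the Cal27-shGRK2 condition. The mitosis value lies above the replication value in each Cal27-shGRK2 column and also in Cal27 replicates 0 and 2. In Cal27 replicate 1 the order is the opposite.

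The authors' condition value for Cal27 equals the mean of its 3 columns in 99.8% of 13726 genes at a relative tolerance of 1e-04, but for Cal27-shGRK2 in 0.335%. An additional Cal27-shGRK2 library was therefore computed from that mean and both distinct libraries. In it the replication mean was -0.04 and the mitosis mean 0.05, a difference of 0.09. In 75 of 18678 genes the computed value was below 0 and was set to 0. With the computed library, 10 members passed, 5 higher and 5 lower, among them the same 6 genes, with MCM3, UBE2C, FOXM1 and MKI67 added (limma adjusted p = 0.045, 0.046, 0.029 and 0.014). That is 23.3% of the members, beside 35.7% of all genes tested in that setting. All 43 intervals lay between -0.5 and 0.5. In the authors' deposited table of their own comparison, 1 of the 43 members was marked significant, MCM6 (log2 fold change -0.26, q = 0.038), beside 15.4% of all 18678 genes, and log2 fold changes of the members ran from -0.26 to 0.29.

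Promoter matches and fold changes are given side by side without a test. The 10 members that had no window are in none of these groups, among them GINS4, which rose, and BIRC5, which fell. The 12 replication members with an E2F match had a median log2 fold change of -0.10, from -0.26 to 0.10. Calls among these 12 were 2 lower and 0 higher, beside 14.6% lower and 15.0% higher of all genes tested. The 4 without a match, ORC1, RRM1, RRM2 and MYBL2, had a median of 0.00 and included the rise of RRM2. Mitosis members had medians of 0.01 in the 11 with a CHR match, among them KIF23, and 0.06 in the 6 without.

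Other genes of the pathway came from lists drawn up by function. Among 50 further replication genes there were 1 rise and 8 falls (18.0% called, beside 29.6% of all genes tested), and 41 did not pass. Their median was -0.07, with 39 below 0, beside 50.9% of all genes, but -0.01 with 29 below 0 after rescaling to a common total. DSCC1, of an alternative clamp loader (log2 fold change -0.29), the polymerase epsilon subunit POLE2 (-0.27), the histone chaperone NASP (-0.26) and the origin subunit ORC6 (-0.26) fell, and the fork protection factor TIMELESS (0.18) rose. Among 60 further mitosis genes there were 6 rises and 3 falls (15.0% called, beside 29.6%), and 51 did not pass. Their median was 0.06, with 44 above 0, beside 49.1% of all genes, and after rescaling to a common total it was 0.11, with 53 above 0, 9 rises and 2 falls. Under that rescaling the median over all genes tested was itself 0.05, and 31.1% were called, 2927 higher and 1575 lower. The share of all genes above 0 under it is not given here. The cytokinesis genes CIT, citron kinase (0.43), and ANLN, anillin (0.32), rose, as did separase, ESPL1 (0.26), and cyclin F, CCNF (0.25). The phosphatase CDC25B (-0.35), securin, PTTG1 (-0.27), and the CDK subunit CKS1B (-0.19) fell.

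Some regulators of G1 differed by more than any member did. Of 35 G1 cyclins, kinases, RB and E2F family genes, MuvB subunits and CDK inhibitors in the table, 5 rose and 5 fell, which is 28.6%, near the background of 29.6%. Cyclin D1, CCND1, had 166, 184 and 165 FPKM in Cal27, against 273 and 273 FPKM in Cal27-shGRK2 (log2 fold change 0.67 ± 0.06, SE, limma adjusted p = 9.9e-07). CCND2 (0.82), the repressive E2F family member E2F8 (0.39) and the CDK inhibitor CDKN1C (0.27) also rose. MYC (-0.41), the repressor E2F4 (-0.25), the MuvB subunit LIN52 (-0.23) and cyclin D3, CCND3 (-0.22), fell. Of 22 further anaphase-promoting complex and checkpoint genes, the checkpoint protein MAD1L1 rose (0.30), the checkpoint kinase CHEK2 fell (-0.52) and 20 did not pass, so that 9.09% were called beside 29.6% of all genes tested. Of these 22 named genes outside the members, 9 (CCND1, CCND2, E2F8, MYC, CDC25B, CIT, ANLN, MAD1L1 and CHEK2) kept their call in every alternative in which they were tested. The other 13 each lost it without at least 1 of the 2 Cal27-shGRK2 libraries (limma adjusted p from 0.058 to 0.29).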

How the data were processed

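Gene expression was measured in 6 samples by their titles. The submitters' processing notes name Bowtie2 2.2.6, TopHat2 2.1.0 and Cuffdiff 2.2.1 with hg38, without their roles; annotation and strand setting are not stated. The authors deposited FPKM per library and per condition, and, per the file headers, the log2 fold change, test statistic (a score), p-values and q-values of their own comparison. An estimate of 0 is written as 0.0001 and was set to 0.

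Values averaging 1 FPKM or more across the 5 distinct libraries were fitted on log2(FPKM + 1) with limma 3.58.1 (R 4.3.3; trend and robust empirical Bayes, 3 residual degrees of freedom), two-sided. The 13377 p-values were adjusted together by Benjamini-Hochberg, and 0.05 was the threshold. The 95% intervals come from the same fit. Fold changes understate those of low genes. Depth is unknown. The script was tested on simulated data.

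The members, the other 4 gene lists and the tests were chosen with earlier results of these data known. Members described in full are those past the threshold, the 3 highest and 3 lowest changes in each set and the 3 most abundant. From other lists, up to 4 called genes per direction were named. AURKB is outside this rule and was chosen after its values were seen. Alternatives covered pseudocount, filter, scaling, variance model, replicate block, libraries and membership. Symbols and positions were matched by gene identifier to GENCODE 29; promoter windows are from RefSeq (GRCh38.p14).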

Additional observations from a re-analysis of the deposited data

How the results depend on the processing

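Members past the threshold numbered 6 as reported, 10 after rescaling to a common total or with the additional library computed from the authors' mean, and 2 with limma without trend and not robust. These are 14.0%, 23.3%, 23.3% and 4.65% of the members tested. Of all genes, 29.6% were called as reported, 31.1% after the rescaling, 35.7% with the additional library and 25.3% with limma without trend. Leaving out each library in turn gave 2 to 8 members and 2600 to 4028 genes in all, against 3957, with the lowest counts without the shared Cal27-shGRK2 library, and a mitosis median between -0.013 and 0.089. Rescaling to a common total moved the replication median to -0.012 and the mitosis median to 0.093. With the replicate number as a block, 6 members passed with the shared library taken as number 0 (4 of them among the reported 6) and 4 with it as number 1. The numbers were not taken to pair libraries, since only 2 Cal27-shGRK2 libraries are distinct. Same-numbered libraries had correlations of deviations of 0.08, -0.071 and 0.017. The deviations of 2 libraries from their own mean mirror each other, so these are not separate checks and cannot settle whether libraries are paired. CCNB1, 0.05 as reported, ranged from -0.013 without Cal27-shGRK2 replicate 2, a reversal, to 0.117 without the shared library. The causes were not tested. Over the 15 alternatives for the 15 members described in full, 184 results kept their direction and side of the threshold, 23 lost a call, 17 gained one and 1 reversed. Between 42 and 43 members stayed bounded by 0.5 in every alternative. Depth is unknown, so no counting limit can be given.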
